A study of Schizosaccharomyces pombe with 14 samples.

Results

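The nuclear genome of the fission yeast Schizosaccharomyces pombe holds 47 genes, of 6988 identifiers in the deposited count table, that are named for transfer RNAs of arginine, lysine, histidine, aspartate or glutamate. These are the 5 amino acids whose side chains can carry a charge. The genes were taken by name, as identifiers that contain the amino acid's tRNA label, leaving out mitochondrial genes, and all 47 are typed as tRNA genes in the authors' deposited table. They comprise 13 arginine, 12 lysine, 4 histidine, 8 aspartate and 10 glutamate genes, and 117 other nuclear tRNA genes were used for comparison.

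Poly(A)+ RNA was sequenced from a strain that lacks maf1 (h+, maf1 replaced by natMX, strain AGP256) and from a wild type (h-, strain AGP72). Each strain was sampled at 0 h, in log phase in the rich medium YES, and at 4, 8, 12, 24, 36 and 48 h in ePMGT, a synthetic medium given without phosphate. The submitters class 4 to 12 h as limited growth and 24 to 48 h as quiescence, and each of the 14 combinations has 3 replicate experiments. The deletion also differs from the wild type in mating type, and 0 h differs from all later times in medium as well as in phosphate, so these factors cannot be told apart from the deletion and from starvation. Nothing states that the replicates were separate cultures, so p-values measure the spread between these libraries.

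Transfer RNA genes are transcribed by RNA polymerase III, which stops at a short run of T just after the gene. Maf1 is the conserved repressor of this polymerase and acts when nutrients run short. The primary transcript is trimmed at its ends, spliced where it has an intron, and completed with CCA. A mature tRNA has no poly(A) tail, whereas defective tRNA transcripts in the nucleus can be given a short one by the TRAMP complex, whose poly(A) polymerase in fission yeast is Cid14, before the exosome degrades them. Read counts in a poly(A)-selected library therefore do not give the amount of mature tRNA.

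The total count per library was 33249827 to 42808200 in the 21 deletion libraries and 12157201 to 26359389 in the 21 wild-type libraries, so depth also differed between the strains without overlap. The maf1 transcript was at 1.59 to 7.13 CPM (counts scaled to the size of the library) in the deletion libraries and 20.9 to 106 CPM in the wild type. The pheromone precursor gene mfm2, expressed in h- cells, had 7.5 to 12.6 CPM at 4 to 12 h in deletion libraries, against 270 to 688 CPM in wild-type libraries, the order that the labelled mating types give. Of 5 other mating-type genes mfm3, mam2 and map3 also kept the strains apart at these times, in the direction of the labels, while the ranges of mfm1 (4.14 to 26.7 CPM in the deletion and 12.1 to 1510 CPM in the wild type) and map2 (5.09 to 32.6 and 7.58 to 11.3 CPM) overlapped. Levels are shares of each library's poly(A)+ RNA from a whole culture, so fewer cells with a transcript and less of it per cell cannot be told apart.

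Shown first is the gene of each amino acid with the highest mean CPM over all 42 libraries, and for arginine also the second. Sequences come from RefSeq (build ASM294v3, all 47 matched by locus tag), each 5′ to 3′ on its own strand with the anticodon in capitals. The SPC arginine gene has the anticodon TCG and the SPA arginine gene ACG, and both lie on their chromosome's minus strand. The histidine (chromosome III, plus strand), aspartate (III, minus), lysine (II, minus) and glutamate (II, plus) genes complete the set. The prefix SPA, SPB or SPC marks chromosome I, II or III.
SPCTRNAARG.10: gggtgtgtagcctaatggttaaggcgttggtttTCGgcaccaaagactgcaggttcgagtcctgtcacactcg
SPATRNAARG.03: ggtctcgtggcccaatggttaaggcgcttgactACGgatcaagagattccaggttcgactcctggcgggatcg
SPCTRNAHIS.03: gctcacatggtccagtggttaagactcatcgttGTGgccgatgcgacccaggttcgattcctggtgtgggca
SPCTRNAASP.08: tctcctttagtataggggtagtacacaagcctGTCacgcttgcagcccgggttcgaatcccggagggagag
SPBTRNALYS.06: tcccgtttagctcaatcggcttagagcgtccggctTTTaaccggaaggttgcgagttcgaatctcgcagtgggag
SPBTRNAGLU.05: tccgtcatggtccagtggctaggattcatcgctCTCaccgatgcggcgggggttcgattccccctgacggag

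Many of the 47 genes are exact copies of one another. The anticodon ACG, which after conversion of its A to inosine reads several CGN arginine codons, is encoded by 8 genes of identical sequence, and the single TCG gene SPCTRNAARG.10 differs from them at 23 of 73 bases. All 8 aspartate genes are identical, as are the 4 histidine genes, the 6 glutamate genes with anticodon CTC and the 4 with TTC. Lysine has 9 genes with anticodon CTT and 3 with TTT. The TTT gene SPBTRNALYS.06 differs from SPATRNALYS.02 at 1 of 75 bases. For 5 of the 8 genes named for aspartate both the authors' deposited table and RefSeq give asparagine as the product, but their anticodon GTC reads aspartate codons. In 1 of them, SPBTRNAASP.05, the anticodon lies on the strand opposite to the annotated one. This gene is 1 of 5 among the 47 without a count in any library, and its flanks are repeated in the genome too. A run of at least 5 T begins within 40 bases after the gene in 47 of 47 of these genes (100%), in 112 of the 117 other nuclear tRNA genes (95.7%) and in 17.3% of other annotated nuclear genes.

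Counts from these genes were far higher in the starved maf1 deletion than in the starved wild type, and they kept climbing through 48 h. Summed over all 47 genes, the deletion had 0.509 ± 0.109 CPM at 0 h, 3.08 ± 0.568 at 4 h, 7.16 ± 1.9 at 8 h and 9.35 ± 1.4 at 12 h (SD, n = 3 at each time). It then had 42.4 ± 3.7 CPM at 24 h, 105 ± 13.7 at 36 h and 228 ± 13.2 at 48 h. The wild type had 2.1 ± 0.0936 CPM at 0 h, 0.992 ± 0.044 at 4 h, 1.3 ± 0.0746 at 8 h, 1.57 ± 0.278 at 12 h, 1.55 ± 0.15 at 24 h, 1.73 ± 0.412 at 36 h and 2.35 ± 0.356 at 48 h. The lowest deletion library lay above the highest wild-type library at every starved time, and the order was the opposite at 0 h, where the deletion had 0.408 to 0.624 CPM and the wild type 2.02 to 2.2 CPM. The ratio of deletion to wild type was 0.242 at 0 h, 3.11 at 4 h, 5.97 at 12 h, 27.3 at 24 h and 96.9 at 48 h. Over the 117 other nuclear tRNA genes the same ratio was 0.202 at 0 h, 3.98 at 12 h, 13.3 at 24 h and 55.1 at 48 h. These sums are descriptions and were not tested.

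**Figure D1:**
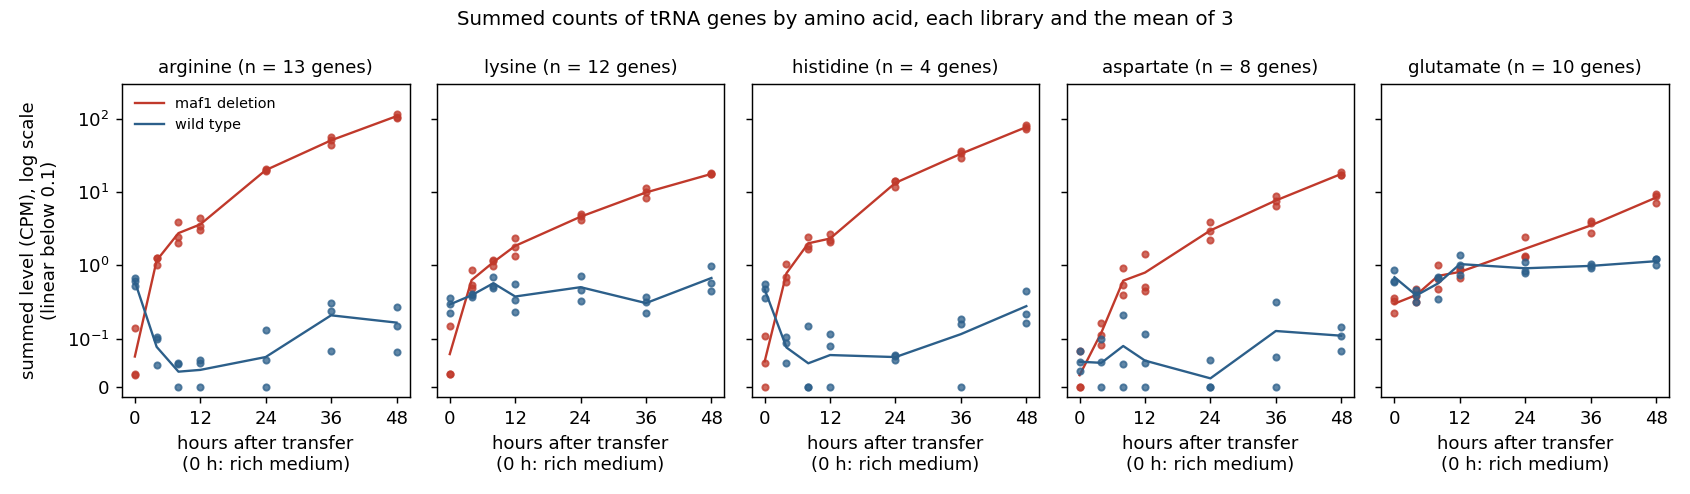
Summed level (CPM, log axis, linear below 0.1) of the tRNA genes of each amino acid against hours after transfer, for the maf1 deletion (red) and the wild type (blue); points are libraries and lines the means of 3. The 3 deletion libraries at 48 h lie between 102 and 116 CPM for arginine, and between 6.96 and 9.38 CPM for glutamate, the amino acid with the smallest gap to the wild type.

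The amino acids contributed unequally. At 48 h the arginine genes summed to 108 ± 7.23 CPM in the deletion, against 0.165 ± 0.101 CPM in the wild type, and the histidine genes to 76.7 ± 4.33 CPM in the deletion, against 0.276 ± 0.152 CPM in the wild type (SD, n = 3 each). The lysine genes summed to 17.6 ± 0.261 CPM in the deletion, against 0.669 ± 0.278 CPM in the wild type. The aspartate genes stood at 17.6 ± 0.967 CPM in the deletion, against 0.109 ± 0.0345 CPM in the wild type. The glutamate genes were at 8.38 ± 1.27 CPM in the deletion, with 1.14 ± 0.11 CPM in the wild type. Glutamate genes held 901 of the 24733 counts that all 47 genes had in the deletion at 48 h, and 297 of 629 counts in the 21 wild-type libraries of all times. A pair of genes, SPCTRNAARG.10 with 32.0% and SPCTRNAHIS.03 with 25.2%, made up 57.2% of the deletion's 48 h counts.

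A gene was called changed at a Benjamini-Hochberg adjusted p under 0.05 and at least a 2-fold change in edgeR's quasi-likelihood test across 6521 genes in all 42 libraries. Of the 47 genes 26 passed the filter on low counts, and most passed through the starved deletion libraries: with the wild-type libraries of 0 and 24 to 48 h alone, 1 gene passed. Counts of calls among the 26, and p-values of single genes, are therefore given as an account of the genes and not as support. Most genes named below were also chosen for their level or change in these same data. At 24 to 48 h, 25 of the 26 were called higher in the deletion and 0 lower, beside 10.9% of all genes tested called higher and 6.62% called lower, and the median log2 change was 6.45, against -0.01 over all genes tested. At 4 to 12 h, 15 were called higher and 1 lower (2.35% and 4.6% of all genes), with a median of 3.39 against 0 over all genes. At 0 h, 0 were called higher and 6 lower (13.8% and 15.9% of all genes), with a median of -1.8 against 0.12. Some of the 26 had no count at 0 h in either strain and could not be called there. DESeq2, and edgeR at an unadjusted p under 0.05, also gave 0 higher at 0 h and 0 lower at 24 to 48 h. The change from 0 h to 24 to 48 h differed between the strains for 18 of the 26, all in favour of the deletion (20.5% of all genes were called higher and 17.7% lower in this contrast). Genes of the 26 without a count at 0 h in either strain could not be tested in it.

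**Figure D2:**
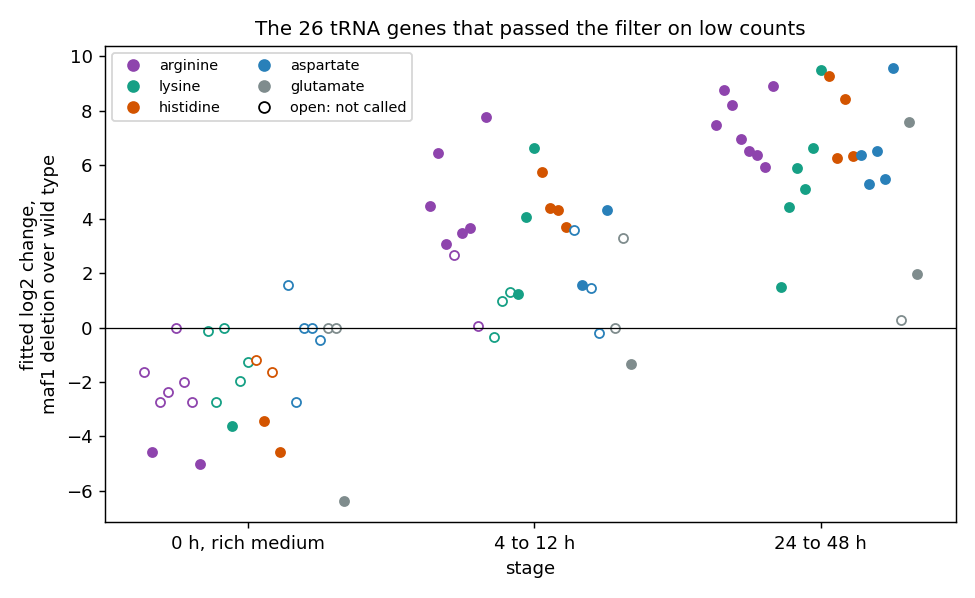
Fitted log2 change of the maf1 deletion over wild type for the 26 genes that passed the filter, at 0 h, 4 to 12 h and 24 to 48 h, coloured by amino acid; filled points were called. The 24 to 48 h values run between 0.30 and 9.59, and the 0 h values between -6.37 and 1.56; where a group holds no count the fitted value depends on the small count that edgeR adds.

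Among the arginine genes, SPCTRNAARG.10 (anticodon TCG, reading CGA codons) had the most counts of all 47. Its deletion libraries held 525, 538 and 451 counts at 24 h and 2628, 2442 and 2851 counts at 48 h, against 0, 1 and 0 counts at 24 h and 1, 3 and 0 counts at 48 h in the wild type. The deletion libraries averaged 73.1 ± 5.16 CPM at 48 h, against 0.0785 ± 0.082 CPM in wild-type libraries (SD, n = 3 each), and the strains did not overlap in any library of 24 or 48 h. Over 24 to 48 h the log2 change was 8.92 (SE 0.23, edgeR adjusted p = 1.91e-24). Already at 4 to 12 h its 9 deletion libraries held 394 counts and its 9 wild-type libraries none, at least 66.2-fold higher when the floor is set at 3 counts over the group. SPATRNAARG.03, 1 of the 8 identical ACG genes, had 618, 515 and 683 counts in the deletion at 48 h, against 0, 0 and 1 in the wild type. Its log2 change over 24 to 48 h was 8.76 (SE 0.38, edgeR adjusted p = 7.44e-18). SPBTRNAARG.04, with the anticodon TCT for AGA codons, had 115, 100 and 112 counts in the deletion at 48 h and none in the 9 wild-type libraries of 24 to 48 h, at least 74.9-fold higher over that stage.

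The 4 histidine genes were all called higher in the deletion at both starved stages. SPCTRNAHIS.03 had 430, 334 and 349 counts in the deletion at 24 h and 2016, 1927 and 2280 at 48 h, against 1, 0 and 1 at 24 h and 2, 1 and 1 at 48 h in the wild type. Its 48 h mean was 57.4 ± 2.96 CPM among deletion libraries and 0.0911 ± 0.0469 CPM among wild-type ones (SD, n = 3 each), with a log2 change of 8.43 over 24 to 48 h (SE 0.21, edgeR adjusted p = 1.86e-29). SPBTRNAHIS.01 had 425, 377 and 523 counts in the deletion at 48 h and 0 in each wild-type library, and SPCTRNAHIS.04 had 108, 114 and 143 in the deletion, against 0, 0 and 3 in the wild type. Since the 4 genes are identical, a read that lies wholly inside one matches all 4, and they differ only outside the gene. The 30 bases after each are shown in order of the counts, with the first run of at least 5 T in capitals.
SPCTRNAHIS.03: gtttatttatttgttcTTTTTTaaattatt
SPBTRNAHIS.01: gatcttacaataaTTTTTTcactcattata
SPBTRNAHIS.02: cttactattaaatttaTTTTTgctaattcc
SPCTRNAHIS.04: gTTTTTgttatttttgtattttttgctgct
At 48 h these genes held 6223, 1325, 410 and 365 counts in that order over the 3 deletion libraries. Whether the bases shown bear on the counts was not tested.

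**Figure D3:**
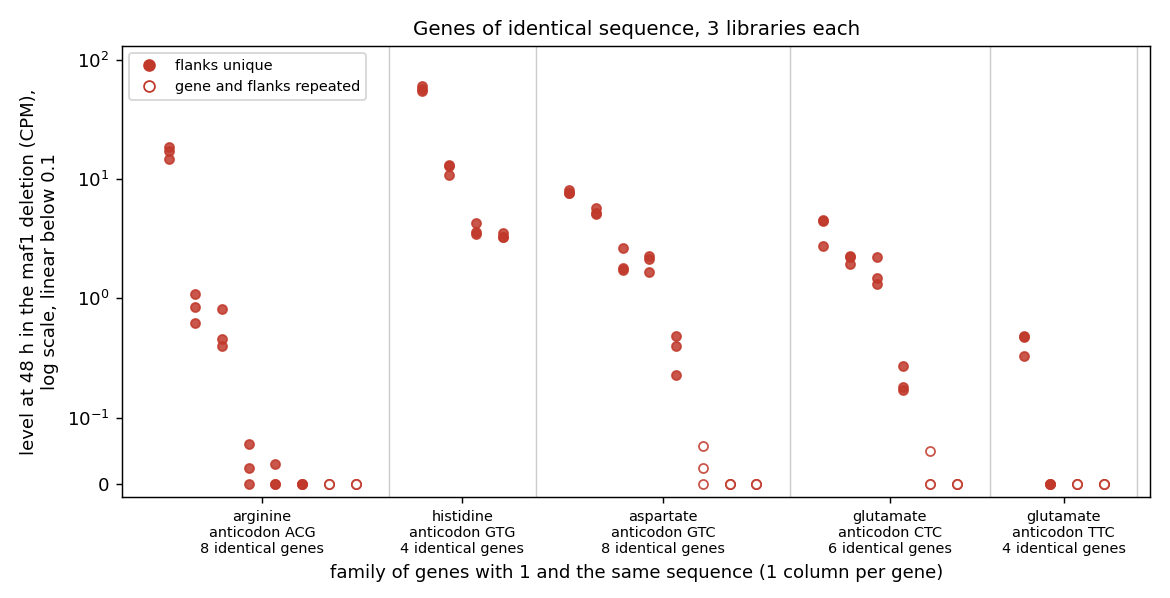
Level at 48 h in the maf1 deletion (CPM, log axis, linear below 0.1) of each gene in 5 families whose members have 1 and the same gene sequence; each column is a gene and its points are the 3 libraries. Open points mark genes whose 60 flanking bases are repeated as well, all of them at 6 counts or fewer in total, while the 4 histidine genes, with unique flanks, average between 3.35 and 57.4 CPM.

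How many counts a gene was given went with how unique its surroundings are. For 13 of the 47 genes the gene together with 60 bases on each side occurs more than once in the genome. These 13 had 0 to 6 counts in the 3 deletion libraries of 48 h, with a median of 0, and none passed the filter. The 34 genes with unique flanks had 0 to 7921 counts with a median of 226, and 4 of them had at most 6. The 26 other nuclear tRNA genes with repeated flanks had 0 to 19 counts, with a median of 0, and the 91 with unique flanks had 0 to 14537, with a median of 197. Repeated flanks also overlapped with another feature. For 15 of the 47 genes the nearest annotated gene is another tRNA gene, and most of the 13 are among these 15. Of the 15, 12 had at most 6 counts, with a median of 1 and a highest count of 7921. Whether low counts go with repeated flanks or with a tRNA gene nearby was not tested. How the authors' counting treated reads that match several places is not given in the sources used here, so low RNA and uncounted reads cannot be told apart for the 13. Counts within the identical families are uncertain for the same reason, and 5 genes, among them SPATRNALYS.02 and SPBTRNAGLU.08, overlap an annotated noncoding RNA on the opposite strand.

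Of the lysine genes, 3 of 3 with anticodon TTT and 3 of 9 with CTT passed the filter, beside 6521 of all 6988 identifiers. All 6 that passed are among the 8 lysine genes with unique flanks. The TTT genes all have unique flanks and several CTT genes do not. All 9 CTT genes have an intron and the TTT genes have none, so anticodon, flanks and intron cannot be told apart here. SPBTRNALYS.06 had 58, 54 and 67 counts in the deletion at 24 h and 216, 239 and 242 at 48 h, and no count in any of the 18 starved wild-type libraries. It was thus at least 173-fold higher in the deletion over 24 to 48 h. At 0 h the gene was seen in both strains, with 4, 0 and 0 counts in the deletion and 3, 3 and 1 in the wild type. SPATRNALYS.02, nearly the same in sequence, had 136, 136 and 140 counts in the deletion at 48 h, against 1, 1 and 0 in the wild type, and a log2 change of 4.45 over 24 to 48 h (SE 0.33, edgeR adjusted p = 1.22e-14). Summed over the lysine genes the 48 h ratio of deletion to wild type was 26.3, below the 161 of aspartate and above the 7.38 of glutamate. These ratios rest on 32, 5 and 52 wild-type counts for lysine, aspartate and glutamate. At 36 h they were 32.3, 60.2 and 3.56 in the same order. SPBTRNALYS.09, chosen here after its values were seen, failed the filter and had 23 counts in the deletion and 12 in the wild type at 48 h, a ratio of 0.804 in CPM (95% counting interval 0.384 to 1.77).

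Aspartate genes had few counts in the wild type, 25 over 21 libraries for all 8, and these lay in the 5 genes with unique flanks. SPCTRNAASP.08 had 75, 36 and 55 counts in the deletion at 24 h and 271, 268 and 304 at 48 h, and none in the 9 wild-type libraries of 24 to 48 h, at least 193-fold higher in the deletion. At 4 to 12 h its log2 change was 4.33 (edgeR adjusted p = 0.000697), and between 3.38 and 5.17 over the 18 fits without 1 library. The call was lost in 1 of these fits, at 3.38, without deletion replicate 1 of 4 h. At this stage 2 of the 9 deletion libraries had no count and the 9 wild-type libraries held 1 count. Leaving out 1 library can thus leave a group with hardly any counts to test. SPATRNAASP.02 had 173, 201 and 206 counts in the deletion at 48 h, against 2, 2 and 1 in the wild type. Its log2 change over 24 to 48 h was 5.29 (SE 0.36, edgeR adjusted p = 1.48e-15).

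The glutamate genes with anticodon CTC held the 2 genes with the most wild-type counts. SPBTRNAGLU.05 was present in every library of both strains. It had 13, 8 and 13 counts in the deletion and 8, 8 and 7 in the wild type at 0 h, 18, 27 and 14 in the deletion and 12, 11 and 11 in the wild type at 24 h, and 73, 46 and 59 in the deletion and 6, 15 and 12 in the wild type at 48 h. In CPM the strains overlapped at 0 h, the 3 deletion libraries lay below the 3 wild-type libraries at 24 h (0.4 to 0.643 and 0.667 to 0.719 CPM), and at 48 h the deletion was above, with 1.66 ± 0.473 CPM, against 0.716 ± 0.25 CPM for wild type (SD, n = 3 each). It was the 1 tested gene not called over 24 to 48 h, with a log2 change of 0.30 (SE 0.18, edgeR adjusted p = 0.126). Taken by single time, the log2 change was -0.49 at 24 h (adjusted p = 0.189), 0.19 at 36 h (adjusted p = 0.603) and 1.19 at 48 h (SE 0.29, adjusted p = 0.000344), all by edgeR. Its strains did not differ detectably in the change from 0 h to 24 to 48 h (0.30, SE 0.43, edgeR adjusted p = 0.533), and it was called higher at 24 to 48 h than at 0 h in the deletion (1.53) and in the wild type (1.23), where the call was lost with library size alone as the scaling.

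SPCTRNAGLU.09, identical in gene sequence to SPBTRNAGLU.05, was called lower in the deletion at 0 h and higher at 24 to 48 h. It had 0 counts in all 3 deletion libraries at 0 h, against 17, 3 and 9 in the wild type, at least 14.2-fold lower in the deletion. At 4 to 12 h it held 23 counts in the 9 deletion libraries and 26 in the 9 wild-type ones, which have less depth, a log2 change of -1.35 (SE 0.62, edgeR adjusted p = 0.0481) that missed the threshold in 11 of the 18 fits without 1 library. At 48 h it had 73, 80 and 78 counts in the deletion and 8, 4 and 4 in the wild type, and its log2 change over 24 to 48 h was 1.97 (SE 0.30, edgeR adjusted p = 2.89e-07). SPBTRNAGLU.08, another copy, had 149, 160 and 111 counts in the deletion at 48 h and 0, 1 and 0 in the wild type, with a log2 change of 7.58 over 24 to 48 h (SE 0.77, edgeR adjusted p = 1.46e-09). The same gene sequence thus stood beside log2 changes between 0.30 and 7.58. Counts within identical families are uncertain, and any link between the bases after a gene and its counts was not tested. For the 34 genes with unique flanks, the distance to the run of T had Spearman rho 0.37 with the 48 h deletion level. Over 86 other nuclear tRNA genes with unique flanks and a run of T it was -0.04. The bases that follow these 3 copies differ, as shown here with the first run of T in capitals.
SPBTRNAGLU.05: aataagTTTTTatttacaagtgtatattgc
SPCTRNAGLU.09: aTTTTTTatcgtgtacttttctaaattgat
SPBTRNAGLU.08: taTTTTTatcaaaaatatgtatgtagtcaa

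**Figure D4:**
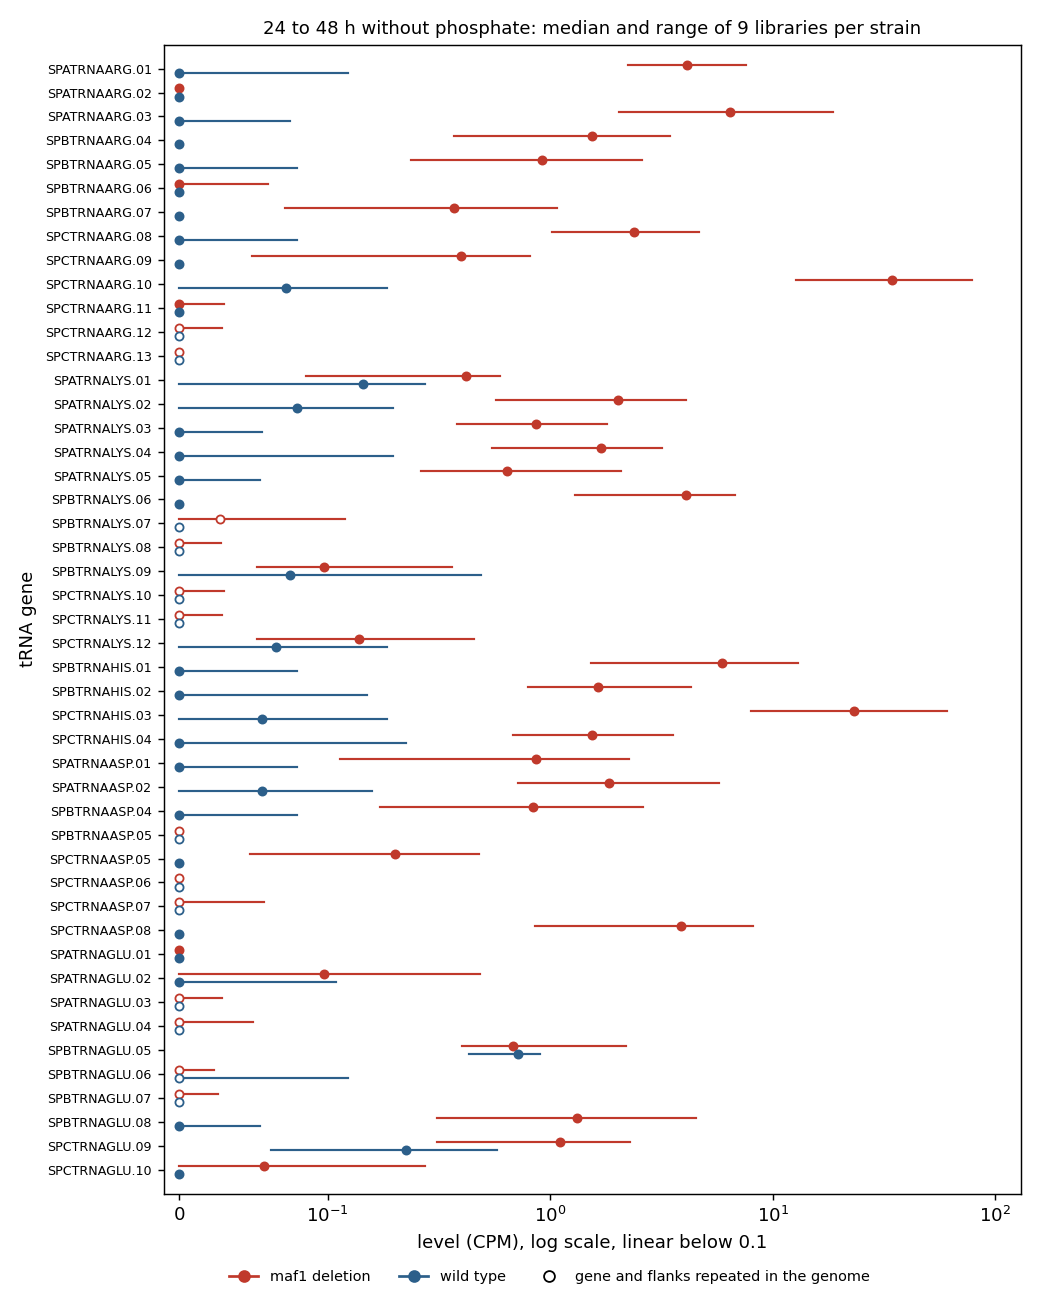
Level (CPM, log axis, linear below 0.1) of each of the 47 genes at 24 to 48 h in the maf1 deletion (red, upper of each pair) and wild type (blue); points are medians and lines the range of 9 libraries. SPCTRNAARG.10 and SPCTRNAHIS.03 lie farthest to the right, the ranges of SPBTRNAGLU.05 overlap, and open points mark genes whose flanks are repeated.

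In rich medium the order of the strains was turned round. All 47 genes together held 58 counts in the 3 deletion libraries and 161 in the 3 wild-type libraries, although the deletion was sequenced more deeply. Of the 6 genes called lower at 0 h, SPCTRNAARG.10 had 0 counts in the deletion and 1, 6 and 4 in the wild type, at least 5.38-fold lower (edgeR adjusted p = 0.00463). SPCTRNAHIS.04 had 0 counts in the deletion and 2, 2 and 4 in the wild type, at least 3.92-fold lower (edgeR adjusted p = 0.0113), and SPATRNAARG.03 had 0 in the deletion and 5, 1 and 2 in the wild type, also at least 3.92-fold lower. These calls rest on few reads, and with the 0 h libraries alone none of the 47 genes passed the filter. SPBTRNAHIS.01, with 1 count in the deletion and 2 in the wild type, was not called.

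Within the wild type, the starved stages were set against 0 h. At 4 to 12 h, 1 of the 26 was called higher and 8 lower than at 0 h (19.6% and 18.9% of all genes tested), and at 24 to 48 h 1 was called higher and 5 lower (22% and 20.1%), so that the late count of lower genes is near the share among all genes. SPCTRNAARG.10 and SPBTRNALYS.06 had no count in the 9 wild-type libraries of 4 to 12 h, against 11 and 7 counts in the 3 of 0 h. With library size alone as the scaling no gene was called higher in either of these wild-type comparisons. Within the deletion, 18 were called higher and 0 lower at 4 to 12 h than at 0 h (18.7% and 16.3%), and 26 higher and 0 lower at 24 to 48 h (22.6% and 18.7%), with 0 lower also by DESeq2 and by edgeR at an unadjusted p under 0.05. Between 24 h and 48 h of the deletion the summed level grew 5.38-fold, and SPATRNAARG.03 grew 7.25-fold (95% counting interval 6.38 to 8.27) while SPATRNALYS.02 grew 3.73-fold (3.04 to 4.61), intervals that cover counting error only.

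The genes that make and process tRNA transcripts gave 0 calls by edgeR between the strains in the starved stages, where few genes of any kind were called at 4 to 12 h (2.35% higher and 4.6% lower) and more at 24 to 48 h (10.9% and 6.62%). Of 22 genes for RNA polymerase III subunits and its factors TFIIIB and TFIIIC, 21 were tested, and edgeR called 0 at 4 to 12 h and 0 at 24 to 48 h between deletion and wild type (median log2 changes -0.03 and 0.05). Without the 2-fold minimum, an unadjusted p under 0.05 was reached by 10 higher and 7 lower at 4 to 12 h and by 11 higher and 3 lower at 24 to 48 h, and DESeq2 called 0 and 1. At 0 h 6 were called higher and 2 lower in the deletion, beside 13.8% and 15.9% of all genes. They include brf1, a subunit of TFIIIB that helps to bring the polymerase to its genes (log2 change 2.83, SE 0.06), the polymerase subunit gene rpc19 (1.37), and sfc4, of TFIIIC (-1.59). At 24 to 48 h against 0 h brf1 was higher by 1.68 in the deletion and by 4.47 in the wild type, a difference between strains of -2.79 (SE 0.07, edgeR adjusted p = 1.55e-29).

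Of 27 genes for tRNA end processing, splicing and nuclear surveillance, 26 were tested, and edgeR called 0 between deletion and wild type at each starved stage, as did DESeq2. An unadjusted p under 0.05 was reached by 10 higher and 8 lower at 4 to 12 h, and by 17 higher and 6 lower at 24 to 48 h. At 0 h 4 were called higher and 0 lower in the deletion, beside 13.8% and 15.9% of all genes, so the higher calls are near the share among all genes. They include dis3, for an exosome nuclease, and trz1, for a tRNase Z that cuts the 3′ end (1.15, SE 0.05). The gene sla1, for the La protein that binds the 3′ end of new transcripts, was lower at 24 to 48 h than at 0 h in the deletion (-2.05, SE 0.03), and its change differed from that in the wild type by -1.34 (edgeR adjusted p = 3.81e-23).

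In the authors' deposited table of the deletion at 48 h against wild type at 0 h, 42 of the 47 genes have a log2 change, of which 27 pass an adjusted p under 0.05 at 2-fold or more upwards and 0 downwards. That deposited table lists SPCTRNAARG.10 at 8.96, SPCTRNAHIS.03 at 9.28, SPBTRNAGLU.05 at 2.44 and SPCTRNAGLU.09 at 2.54. In the authors' deposited table of the deletion at 0 h, 0 genes pass upwards and 8 downwards.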

How the data were processed

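Libraries were made from poly(A)+ RNA with a stranded Illumina TruSeq mRNA kit and read from both ends (NovaSeq), per the labels' protocols. Per the submitters' processing notes, which give no roles, the build was ASM294v2 and the tools were DESeq2, HTSeq 0.10.0, HISAT2 2.1.0 and SAMtools. The strand setting of the counting is not given in the sources used here. The authors deposited 1 table of counts, treated as estimated counts because 0.5 stands where a 0 would (6.51% of values), and these were rounded to whole numbers, 0.5 to 0. The authors' tables of comparisons with wild type 0 h, with deposited log2 fold changes and adjusted p-values, were used as cited. Groups were taken from the labels and all 42 count columns were used.

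Counts were tested with edgeR 4.0.16 (R 4.3.3; TMM scaling, filterByExpr over the 14 groups, glmQLFit and glmQLFTest, 28 residual degrees of freedom), with Benjamini-Hochberg adjustment over 6521 genes. Stages are means of 3 times. CPM values use the TMM-scaled library sizes. Folds against a group with no count use a floor of 3 counts over the group, and counting intervals are exact at 95% and cover counting error only. The code was tested on simulated data. Alternatives were DESeq2 1.42.0, other scalings, no filter, no minimum fold, a fit of only the groups compared, a replicate block, and leaving out each library. The genes named by rule are the 2 with the highest mean CPM per amino acid and the 3 with the largest called changes in each direction in each strain comparison and in the difference between strains. Outside this rule, SPBTRNAHIS.02 is shown as the remaining histidine gene, and SPBTRNALYS.09 was added after its values were seen. The 21 that failed the filter are SPATRNAARG.02, SPBTRNAARG.06, SPCTRNAARG.11, SPCTRNAARG.12, SPCTRNAARG.13, SPBTRNALYS.07, SPBTRNALYS.08, SPBTRNALYS.09, SPCTRNALYS.10, SPCTRNALYS.11, SPCTRNALYS.12, SPBTRNAASP.05, SPCTRNAASP.06, SPCTRNAASP.07, SPATRNAGLU.01, SPATRNAGLU.02, SPATRNAGLU.03, SPATRNAGLU.04, SPBTRNAGLU.06, SPBTRNAGLU.07 and SPCTRNAGLU.10, and 5 of the 47 genes have no count in any library. The genes and lists were chosen with earlier results of these data known. Sequences come from RefSeq ASM294v3, another version of the build, so no coordinates are given.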

Additional observations from a re-analysis of the deposited data

Results flagged for a closer look

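The change from 0 h to 24 to 48 h differed between the maf1 deletion and the wild type for 18 of the 26 tRNA genes tested, by edgeR's test of the difference itself, all in favour of the deletion, beside 20.5% of all genes called higher and 17.7% called lower. Most of the 26 passed the filter on low counts through the starved deletion libraries, so this count describes the genes and supports nothing. Of the 13 genes named by rule and tested, 11 were called, and SPCTRNAARG.10, SPATRNAARG.03 and SPBTRNAARG.04 were named for their large value in this same contrast. The difference in log2 change was 13.95 for SPCTRNAARG.10, 13.33 for SPATRNAARG.03 and 10.94 for SPBTRNAARG.04. It was 10.78 for SPBTRNALYS.06 and 7.20 for SPATRNALYS.02, and 10.05 for SPCTRNAHIS.03, 10.46 for SPBTRNAHIS.01 and 10.92 for SPCTRNAHIS.04. For SPCTRNAASP.08 it was 10.04, for SPATRNAASP.02 8.04 and for SPCTRNAGLU.09 8.35. Not called were SPBTRNAGLU.05 (0.30, edgeR adjusted p = 0.533) and SPBTRNAGLU.08 (7.58). SPBTRNAGLU.08 had no count at 0 h in either strain, so this contrast could not test it. The same holds for some other uncalled genes, so not all of the 26 could be called here. Several of the named genes had no count in the deletion at 0 h, among them SPCTRNAARG.10, SPATRNAARG.03 and SPCTRNAGLU.09, so the size of the fitted difference depends on the small count that edgeR adds.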

How the results depend on the processing

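Of 60 counts of called genes recomputed under other settings, 55 stayed within 1.5 times the reported count, as did all 114 that left out 1 library, and none of the named genes' called changes turned sign, while SPBTRNAGLU.05 at 0 h (-0.13 to 0.21) and at 4 to 12 h (-0.09 to 0.08) and SPCTRNAASP.08 at 0 h (-2.73 to 0.01), not called, did so without 1 library, as did SPBTRNAGLU.05 at 24 to 48 h (-0.15) without the 48 h libraries. The other 5 came from fitting only the groups compared, which leaves fewer of these genes past the filter. That fit called 0 at 0 h in the deletion against wild type (0 tested) and 5 of 6 tested at 4 to 12 h. It called 0 of 1 in the wild type at 4 to 12 h, 1 of 1 in the wild type at 24 to 48 h and 7 of 8 in the deletion at 4 to 12 h, each against 0 h. Without 1 library, the deletion against wild type gave 5 to 7 calls at 0 h, 14 to 17 in the early stage (4 to 12 h) and 25 to 27 in the late stage (24 to 48 h). The wild type gave 7 to 10 and 4 to 8, the deletion 15 to 20 and 26 to 27 (4 to 12 h and 24 to 48 h against 0 h), and the difference between strains 18 to 21. DESeq2 called 24 for the difference. A late stage without the 48 h libraries, chosen after seeing the data, gave 25 calls between the strains, 6 in the wild type, 26 in the deletion and 18 for the difference. The replicate numbers did not pair the libraries (median correlation of same-numbered deviations 0.02, over 0.1 in 31 of 273 pairs), and the replicate block gave 6 calls at 0 h, 16 in the early and 25 in the late stage, and changed no other count. Library size alone shifted the median of all genes at 0 h by -0.28 and the share of higher calls there to 26.8%, against 46.5% as reported; it shifted the difference between strains by 0.3. At 0 h without deletion replicate 1 SPBTRNALYS.06 was called (-4.38, adjusted p = 0.0127), and without deletion replicate 2 SPCTRNAHIS.03 (-4.39, adjusted p = 0.0138), both by edgeR. At wild-type depth 1 count is near the lowest levels given, which limits what can be said of genes with few counts.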
